A study of Mus musculus with 16 samples.

Results

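The 9 genes described here encode parts of the complement system: the 3 chains of the recognition molecule C1q (C1qa, C1qb, C1qc), the central components C4b and C3, the receptors C3ar1, C5ar1 and Itgam, and the C1 inhibitor Serping1. They were looked up by gene symbol among the 31960 genes of the hippocampal count table, and all 9 were found and passed a minimum of expression. They were chosen from earlier results of these libraries in which the High and Low Activity strains differed, so the strain differences of the 9 genes are given as a description, and nothing is concluded from them.

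Complement is a cascade of plasma proteins and receptors of innate immunity. C1q binds its targets and starts the classical pathway, in which C4 and then C3 are cleaved and deposited. The small fragments C3a, released from C3, and C5a, released from the later component C5, act on their receptors. In the mouse brain C1q is made mainly by microglia. C1q, C3 and the microglial complement receptor 3 are known for their part in the removal of synapses in development and in disease models.

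The tissue was the hippocampus of 16 mice aged 70 days, with 1 poly(A) RNA library per mouse: 4 females and 4 males of the High Activity strain, and 4 females and 4 males of the Low Activity strain. Both strains descend from a cross of BALB/cJ and C57BL/6 mice, were selected for high or low movement in an open field and were then inbred, and the mice were naive. Each strain is 1 inbred line (H2 and L2), so a strain difference is a difference between these lines. The High Activity mice are brown and the Low Activity mice white, so the lines also differ in coat colour.

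Total counts ran between 20815456 and 28760896 per library, and between 23108 and 24134 genes had a count. Levels are given as CPM, counts scaled to a fixed library total, with library sizes scaled by TMM factors. Markers of hippocampal neurons summed to 875.1 to 1034 CPM in High Activity libraries and 835.2 to 954 CPM in Low Activity libraries. Markers of thalamus and habenula, which lie beside the hippocampus, were high in some males of each strain, with the highest sums in High Activity males 6 and 8 (496 and 304 CPM) and in Low Activity males 14 and 16 (302 and 245 CPM), against 112 to 202 CPM in the other 12 libraries.

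The genes lie on 5 chromosomes of GRCm38. The 3 C1q genes stand side by side on the minus strand of chromosome 4, with C1qb at 136880129 to 136886187, C1qc at 136889804 to 136893065 and C1qa at 136895917 to 136898803. C4b (34728380 to 34743882) and C3 (57203970 to 57228136) are both on chromosome 17, and C5ar1 (16246743 to 16259540) and Itgam (128062640 to 128118491) are both on chromosome 7. C3ar1 is on chromosome 6 (122847138 to 122856161) and Serping1 on chromosome 2 (84765387 to 84775444). The count of each gene is the authors' estimate for the whole gene from reads aligned to the transcriptome.

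The sequences just before the transcription starts of C1qb, C1qc and C3ar1 are shown because these are the 3 genes whose libraries did not overlap between the strains, the C1q genes lower and C3ar1 higher in High Activity mice. They are the 250 bases before the RefSeq start on GRCm38.p6, which is the C57BL/6J reference, and the strains' own sequences were not read here. RefSeq starts can differ from the gene positions given above. The windows of C1qc, C3ar1 and C5ar1 reach into the genes as placed there. That of C1qc runs from 136892915 to 136893164, whereas the gene as placed begins at 136893065 on the minus strand. Capitals mark GAGGAA, the core motif bound by PU.1 (Spi1), a transcription factor of the macrophage lineage, or its reverse complement TTCCTC.
C1qb, chr4:136886201-136886450, minus strand: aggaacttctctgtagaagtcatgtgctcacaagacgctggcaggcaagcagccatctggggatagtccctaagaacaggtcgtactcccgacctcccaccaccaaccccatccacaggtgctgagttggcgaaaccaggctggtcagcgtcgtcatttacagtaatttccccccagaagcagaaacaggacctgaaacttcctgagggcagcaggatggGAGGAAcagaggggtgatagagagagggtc
C1qc, chr4:136892915-136893164, minus strand: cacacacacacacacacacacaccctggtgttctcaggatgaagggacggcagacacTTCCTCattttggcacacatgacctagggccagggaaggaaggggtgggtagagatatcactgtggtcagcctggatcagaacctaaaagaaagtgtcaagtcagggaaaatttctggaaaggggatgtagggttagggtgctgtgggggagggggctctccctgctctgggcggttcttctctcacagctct
C3ar1, chr6:122856158-122856407, minus strand: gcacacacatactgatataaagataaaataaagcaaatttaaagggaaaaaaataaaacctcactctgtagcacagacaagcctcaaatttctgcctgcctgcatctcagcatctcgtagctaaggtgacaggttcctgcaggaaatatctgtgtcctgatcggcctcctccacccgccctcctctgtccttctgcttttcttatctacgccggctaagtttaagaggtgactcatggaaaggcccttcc
The 6 letters occurred once before C1qb, with their first base 30 bases before the RefSeq start, and once before C1qc, 193 bases before the RefSeq start and on the opposite strand. They were not found in the C3ar1 window. Entries were matched for 6 of the 9 genes. The letters occurred in 2 places before Itgam and in no place before C3 and C5ar1, whereas C1qa, C4b and Serping1 had no entry. On either strand, 23.3% of the 32851 promoter windows of the same length held them.

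Per kilobase of exon, the recognition chains were the most abundant of the 9 genes, with means over all 16 libraries of 40.9 CPM per kilobase for C1qa, 33.0 for C1qb and 15.1 for C1qc. All annotated exons of C1qc together span 1931 bases, against 1203 in its longest transcript, so its value is lower than one per kilobase of transcript. For C1qa (1040 bases) and C1qb (1088 bases) both lengths are the same. C4b (4.35 CPM per kilobase), Itgam (3.84) and Serping1 (3.04) formed a middle range. C3ar1 (0.476), C3 (0.363) and C5ar1 (0.253) were the least abundant, and C5ar1 had only 10 to 28 counts in a library.

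The C1q chains were lower in High Activity mice, and C1qb and C1qc were lower by more than C1qa. C1qb was at 30.5, 22.7, 29.7 and 24.9 CPM in High Activity females and 27.5, 24.6, 28.96 and 26.6 CPM in High Activity males, against 49.4, 48.4, 43.4 and 50.9 CPM in Low Activity females and 34.9, 41.0, 43.5 and 46.9 CPM in Low Activity males. Every High Activity library was below every Low Activity library. The log2 fold change over both sexes was -0.73 (standard error 0.06), which is 1.66-fold lower in High Activity mice.

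C1qc was at 26.8, 21.4, 22.5 and 19.1 CPM in High Activity females and 24.7, 20.7, 23.0 and 20.2 CPM in High Activity males, against 40.6, 38.1, 33.3 and 40.2 CPM in Low Activity females and 30.4, 32.1, 35.5 and 38.87 CPM in Low Activity males. Its strains did not overlap either, and its log2 fold change was -0.69 (standard error 0.07). For both genes the group means stood highest in Low Activity females, then in the males of that strain, then in High Activity females and last in their males, and only the step between the strains separated the libraries.

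C1qa was at 42.3, 30.7, 41.2 and 35.2 CPM in High Activity females and 45.2, 31.4, 39.6 and 34.7 CPM in High Activity males, against 51.9, 49.6, 45.0 and 54.3 CPM in Low Activity females and 40.9, 45.0, 42.1 and 51.2 CPM in Low Activity males. The females of the strains did not overlap, but High Activity male 5 was above 3 of the 4 Low Activity males. The log2 fold change over both sexes was -0.34 (standard error 0.07). Within females it was -0.43 and within males -0.25 (standard error 0.10 for each). Under the alternatives described below, the C1qa difference within males lay between -0.35 and -0.08. The lower C1qa values among High Activity males were those of males 6 and 8, which had the highest sums of thalamus and habenula markers. The part of the dissection in these values was not tested.

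**Figure D1:**
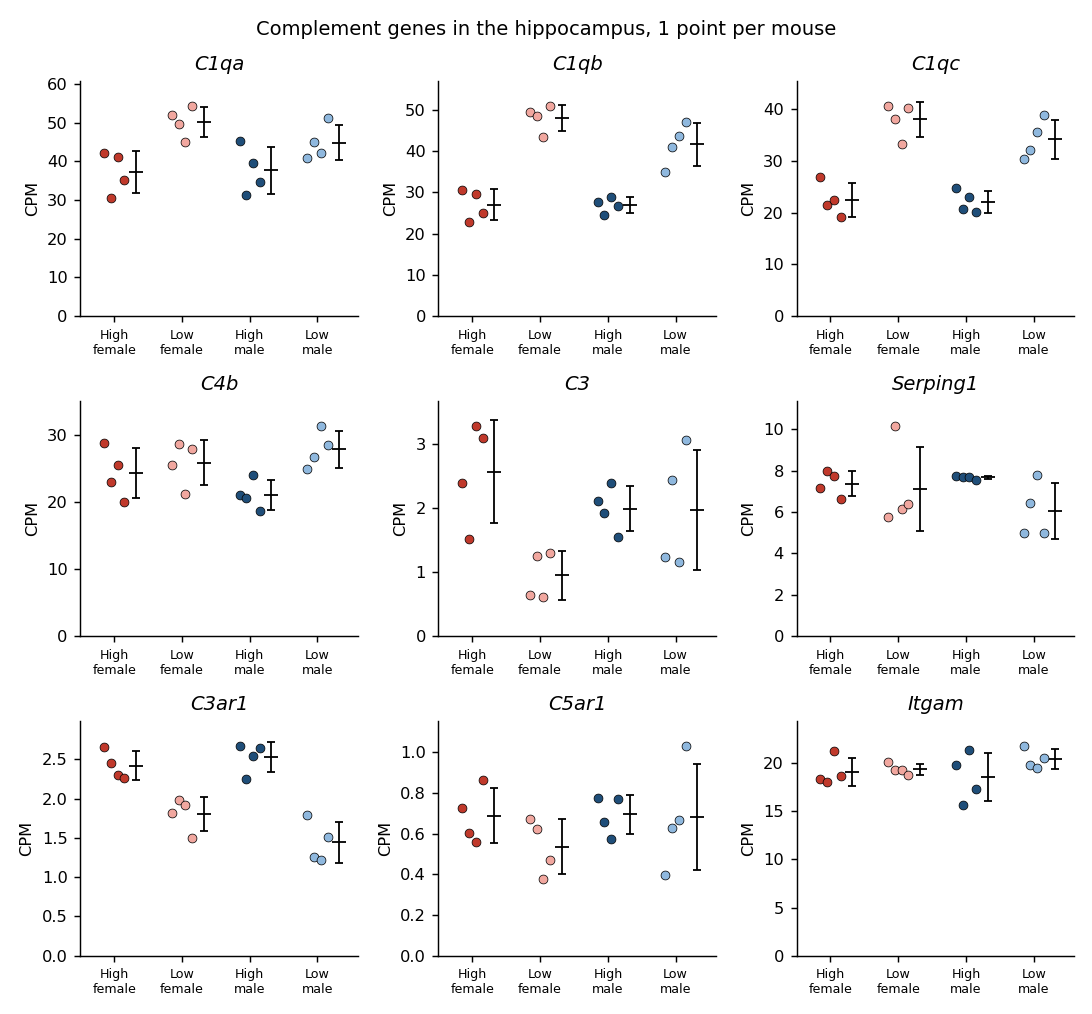
Level of each of the 9 complement genes in CPM (vertical axes, each starting at 0), with 1 point per mouse and, beside each group of 4, the mean ± SD. C1qb and C1qc are lower in every High Activity mouse and C3ar1 is higher in every High Activity mouse, whereas C5ar1 and Itgam overlap between the strains in both sexes.

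The unequal change of the chains is seen within each library as their ratio, which does not depend on the scaling of the library. C1qb over C1qa averaged 0.723 ± 0.0523 (SD, n = 8) in High Activity mice and 0.943 ± 0.0535 (SD, n = 8) in Low Activity mice, with ranges of 0.609 to 0.783 and 0.851 to 1.03 that did not overlap. C1qc over C1qa averaged 0.599 ± 0.0583 in High Activity mice and 0.761 ± 0.0393 in Low Activity mice (SD, n = 8 each), again without overlap. C1qc over C1qb was 0.830 ± 0.0705 in High Activity mice and 0.808 ± 0.0337 in Low Activity mice (SD, n = 8 each), so these chains kept nearly the same ratio in both strains. None of the 3 transcripts shared a stretch of 100 bases with a transcript of another gene. These ratios come from the same counts that chose the genes and carry no test.

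The 16 markers of microglia, the cells that make most C1q in the brain, summed to 479 to 552 CPM in High Activity libraries and 508 to 557 CPM in Low Activity libraries, so their ranges overlapped. The summed C1q chains were at 74.8 to 99.7 CPM in High Activity libraries and 106 to 145 CPM in Low Activity libraries. As a ratio to the marker sum, C1q was 0.167 ± 0.0127 in High Activity mice and 0.241 ± 0.0199 in Low Activity mice (SD, n = 8 each), and the ranges of 0.153 to 0.188 and 0.206 to 0.270 did not overlap. The summed C1q chains alone did not overlap either, and this ratio comes from the same counts that chose the genes and carries no test. In a bulk sample, fewer cells of a type and less RNA per cell cannot be told apart.

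Of the microglial markers, 3 were higher and 2 lower in High Activity mice, and the list's median was -0.02 on the log2 scale, against 0.01 over all genes tested. Those with the smallest p were Fcrls, a receptor of microglia (log2 fold change -1.57, standard error 0.06, edgeR adjusted p = 1.78e-16), Olfml3, a secreted protein (0.43, standard error 0.05, edgeR adjusted p = 1.75e-07) and Tmem119, a membrane protein of resident microglia (-0.29, standard error 0.06, edgeR adjusted p = 0.000716). Markers of perivascular macrophages, other brain cells that make C1q, summed to only 3.70 to 7.49 CPM in High Activity libraries and 4.69 to 8.69 CPM in Low Activity libraries, and none of the 6 passed in edgeR, DESeq2 or limma-voom, nor did any reach an unadjusted p of 0.05 (0 of 6). The lowest adjusted p among them was that of Ms4a7 (0.503), followed by Cd163 (0.614) and Lyve1 (0.615). Markers of blood leukocytes summed to 2.58 to 4.31 CPM in High Activity libraries and 4.01 to 6.61 CPM in Low Activity libraries. Of these 7, only the monocyte marker Ly6c2 passed (edgeR adjusted p = 5.14e-06), at 0.467 ± 0.0986 CPM in High Activity mice and 1.39 ± 0.353 CPM in Low Activity mice (SD, n = 8 each), whereas Cd3e of T cells (edgeR adjusted p = 0.157) and Ptprc, which all leukocytes and microglia carry (edgeR adjusted p = 0.202), did not.

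**Figure D2:**
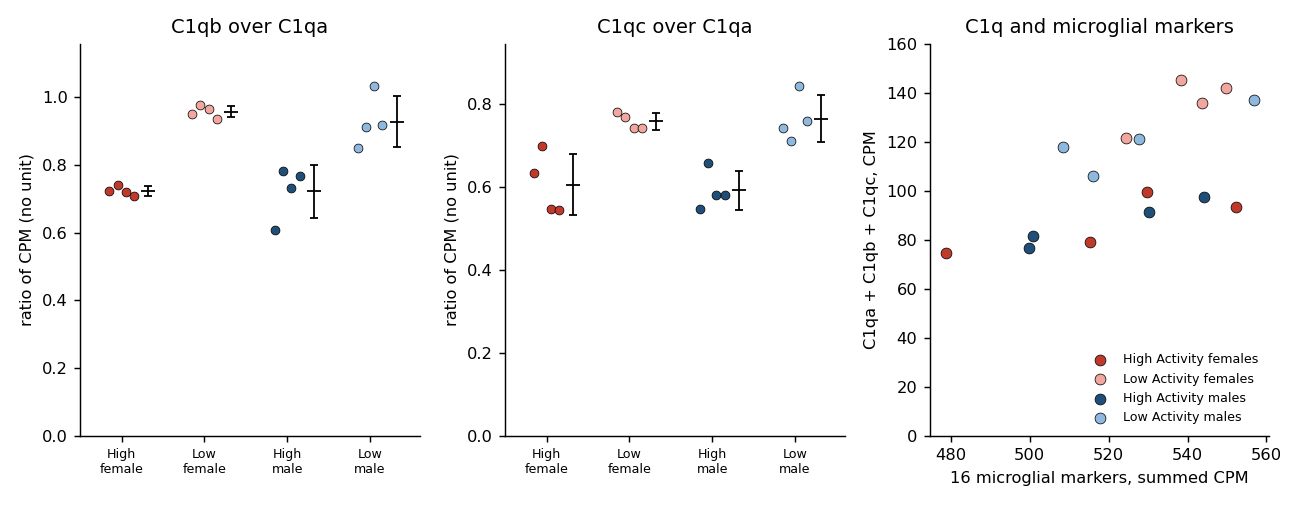
Ratios of the C1q chains (left and middle, ratio of CPM, mean ± SD beside each group of 4) and the summed C1q chains against the summed CPM of 16 microglial markers (right, whose horizontal axis does not start at 0), with 1 point per mouse. The ratios to C1qa are lower in every High Activity mouse, and at a given marker sum the High Activity mice lie lower, between 74.8 and 99.7 CPM of C1q against 106 to 145 CPM in Low Activity mice.

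C4b, the mouse C4 gene of the classical and lectin pathways, was slightly lower in High Activity mice. It was at 28.8, 22.9, 25.5 and 20.04 CPM in High Activity females and 20.96, 20.7, 24.1 and 18.6 CPM in High Activity males, against 25.5, 28.7, 21.3 and 27.9 CPM in Low Activity females and 24.9, 26.7, 31.3 and 28.5 CPM in Low Activity males. The females of the strains overlapped and the males did not. The log2 fold change was -0.24 over both sexes (standard error 0.07). Within females it was -0.09 and within males -0.40 (standard error 0.10 for each).

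C4b has a close copy, C4a, and 16.5% of the stretches of 100 bases in its longest transcript also occurred there, so some reads could be shared out between the pair by the authors' estimation. C4a took 6.24% ± 1.34 of the summed CPM of the pair in High Activity mice and 5.83% ± 1.91 in Low Activity mice (SD, n = 8 each). The sum of C4b and C4a was 24.2 ± 3.47 CPM in High Activity mice and 28.5 ± 2.89 CPM in Low Activity mice (SD, n = 8 each), a difference of -0.24 in mean log2. Astrocytes and oligodendrocytes can both make C4b. The 10 astrocyte markers summed to 5185 to 6253 CPM in High Activity libraries and 4879 to 5165 CPM in Low Activity libraries, the opposite direction to C4b, and 5 of them were higher and none lower by the edgeR test. Aldh1l1, an enzyme of folate metabolism, differed by 0.34 on the log2 scale (edgeR adjusted p = 1.86e-06), the glutamate transporter Slc1a2 by 0.35 (edgeR adjusted p = 9.38e-06) and the gap junction protein Gja1 by 0.23 (edgeR adjusted p = 5.46e-05). Oligodendrocyte markers summed to 6386 to 9359 CPM in High Activity libraries and 6368 to 10666 CPM in Low Activity libraries. Opalin, a myelin protein, was higher in High Activity mice (log2 fold change 0.64, edgeR adjusted p = 5.56e-05), and Cldn11 (edgeR adjusted p = 0.151) and Mobp (edgeR adjusted p = 0.225) did not pass. Without High Activity males 6 and 8, the log2 fold change of C4b was -0.20. The part of astrocytes and oligodendrocytes in the C4b difference was not tested.

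C3, the component on which all pathways converge, was higher in High Activity females than in Low Activity females and had nearly the same mean in the males of the strains. It was at 2.38, 1.51, 3.28 and 3.09 CPM in High Activity females and 2.11, 1.93, 2.38 and 1.54 CPM in High Activity males, against 0.632, 1.25, 0.601 and 1.30 CPM in Low Activity females and 1.23, 2.44, 1.15 and 3.05 CPM in Low Activity males. Low Activity males 14 and 16 were as high as the High Activity females, and Low Activity males 13 and 15 were within the range of the Low Activity females. On the log2 scale the difference was 1.44 within females (standard error 0.32), 0.02 within males (standard error 0.31, 95% interval -0.62 to 0.65) and 0.73 over both (standard error 0.22).

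These C3 values rest on 16 to 88 counts per library. Low Activity males 14 and 16, with the higher C3, were also the Low Activity males with the higher sums of thalamus and habenula markers, but High Activity males 6 and 8, which had the highest sums, were at 1.93 and 1.54 CPM of C3, below High Activity males 5 and 7. The part of the dissection in the C3 values was not tested. C3 is also made by cells of the choroid plexus, whose 7 markers summed to 999 to 5303 CPM in High Activity libraries and 132 to 3561 CPM in Low Activity libraries, with 3 of 7 higher and none lower in High Activity mice by the edgeR test. Ttr, the transthyretin gene, was at 2961 ± 1270 CPM in High Activity mice and 1325 ± 922 CPM in Low Activity mice (SD, n = 8 each; edgeR adjusted p = 0.0295), and Kcnj13 (edgeR adjusted p = 0.0344) and Cldn2 (edgeR adjusted p = 0.0383) were higher as well. Without High Activity males 6 and 8, all 7 choroid plexus markers were higher by this test, and with all libraries DESeq2 and limma-voom each called 1 of 7.

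Among the receptors, C3ar1, which binds the C3a fragment and is carried by microglia in the brain, was higher in every High Activity library. It was at 2.66, 2.45, 2.31 and 2.26 CPM in High Activity females and 2.67, 2.25, 2.54 and 2.65 CPM in High Activity males, against 1.82, 1.98, 1.92 and 1.49 CPM in Low Activity females and 1.79, 1.26, 1.22 and 1.51 CPM in Low Activity males. The fitted log2 difference was 0.62 (standard error 0.14), or 1.53-fold, with 0.42 within females and 0.81 within males (standard error 0.19 for each). The group means ran in the order High Activity males, High Activity females, Low Activity females and Low Activity males, and only the step between the strains separated the libraries.

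C3ar1 thus lay in the opposite direction to C1q, though both are microglial transcripts. Relative to the summed C1q chains, C3ar1 was 2.87% ± 0.278 in High Activity mice and 1.27% ± 0.267 in Low Activity mice (SD, n = 8 each), and relative to the summed microglial markers it was 0.478% ± 0.0385 in High Activity mice and 0.304% ± 0.0538 in Low Activity mice (SD, n = 8 each). Neither ratio overlapped between the strains. C3ar1 and the summed C1q chains each already separated the strains, in opposite directions, so their ratio had to separate them as well. Both ratios come from the same counts that chose the genes and carry no test.

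C5ar1, the receptor for C5a, was at 0.726, 0.604, 0.558 and 0.864 CPM in High Activity females and 0.774, 0.657, 0.574 and 0.769 CPM in High Activity males, against 0.669, 0.624, 0.376 and 0.472 CPM in Low Activity females and 0.398, 0.629, 0.666 and 1.03 CPM in Low Activity males. All 4 groups overlapped. The log2 fold change was 0.19 (standard error 0.24), and its 95% interval of -0.30 to 0.68 left room for a difference in either direction at this depth.

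Itgam, the alpha chain of complement receptor 3 (CD11b), was at 18.3, 18.0, 21.2 and 18.6 CPM in High Activity females and 19.8, 15.6, 21.3 and 17.3 CPM in High Activity males, against 20.1, 19.3, 19.3 and 18.7 CPM in Low Activity females and 21.8, 19.7, 19.5 and 20.5 CPM in Low Activity males. The strains overlapped in both sexes. The log2 fold change was -0.08 (standard error 0.06), with a 95% interval of -0.20 to 0.04. Its annotation overlaps that of Gm49368, whose transcripts hold 71.0% of the stretches of 100 bases of Itgam, but Gm49368 was given only 0 to 5 counts per library. Relative to the microglial marker sum, Itgam was 3.61% ± 0.273 in High Activity mice and 3.73% ± 0.231 in Low Activity mice (SD, n = 8 each).

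Serping1, which inhibits the C1 proteases, was at 7.18, 7.97, 7.74 and 6.62 CPM in High Activity females and 7.74, 7.70, 7.71 and 7.56 CPM in High Activity males, against 5.76, 10.2, 6.16 and 6.41 CPM in Low Activity females and 4.97, 6.45, 7.804 and 5.005 CPM in Low Activity males. The 8 High Activity libraries lay close together, between 6.62 and 7.97 CPM, and 6 of the 8 Low Activity libraries were below all of them. Low Activity female 10 was the highest of all 16. Serping1 differed by 0.20 on the log2 scale (standard error 0.11), and by 0.31 without Low Activity female 10. Fibroblast and meningeal markers summed to 203 to 341 CPM in High Activity libraries and 155 to 288 CPM in Low Activity libraries, and to 280 CPM in Low Activity female 10. Of these 8 markers, Pdgfra, which oligodendrocyte precursors also carry, was higher in High Activity mice (log2 fold change 0.17, edgeR adjusted p = 0.0197), and the extracellular matrix genes Lum (edgeR adjusted p = 0.0629) and Col1a1 (edgeR adjusted p = 0.124) did not pass. Without High Activity males 6 and 8, 3 of the 8 were higher.

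**Figure D3:**
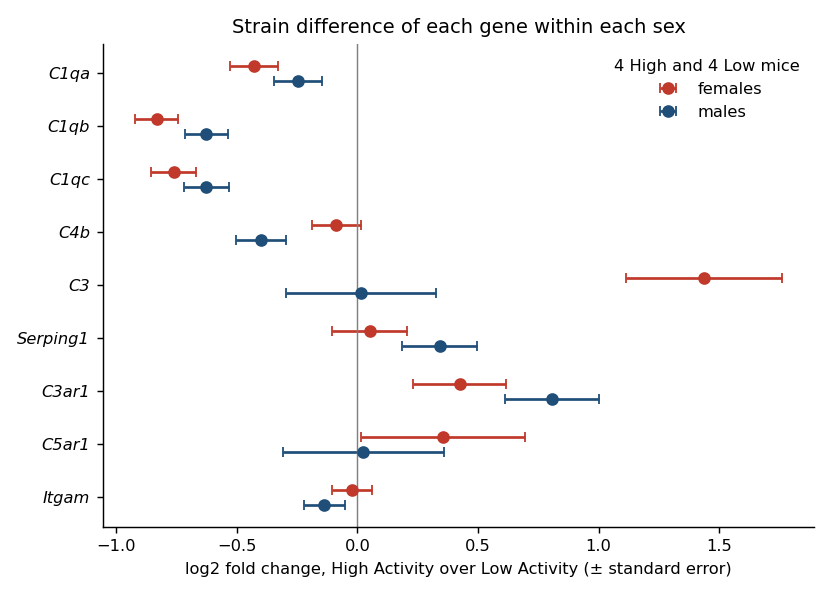
Log2 fold change of High over Low Activity (horizontal axis, ± standard error) for each gene in females and in males, 4 mice per group. C1qb and C1qc lie between -0.83 and -0.63 in both sexes, and C3 lies at 1.44 in females and 0.02 in males.

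At an adjusted p under 0.05 in edgeR, 4 of the 9 genes counted as lower in High Activity mice and 2 as higher, which only describes how they were chosen. Under the 25 alternatives described below, between 4 and 6 of the 9 counted in either direction. Over all 31960 genes, 5.89% counted as lower and 5.46% as higher, and in a fit of only the 17805 genes that pass a minimum of expression these shares were 10.9% and 11.2%. Every High Activity library was below every Low Activity library for 2 of the 9 genes, against 1.73% of all genes, and above for 1, against 1.54% of all genes. Since the genes were chosen from these strain differences, nothing is read from the counts.

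The comparison of the sexes was not used in the choice. No member differed between males and females (0 of 9 by edgeR, and 0 of 9 at an unadjusted p under 0.05; DESeq2 and limma-voom also called 0), against 0.0501% of all genes, or 16 of 31960. The male minus female log2 differences ran between -0.13 for C3ar1 and 0.35 for C3, and the lowest adjusted p was 0.830, for C1qb. The 95% intervals were -0.23 to 0.02 for C1qb, -0.22 to 0.07 for C1qa and -0.22 to 0.05 for C1qc, and wider for C3 (-0.11 to 0.81).

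No member had a strain difference that depended on sex after adjustment (0 of 9 by edgeR, DESeq2 and limma-voom), and neither did any other gene in edgeR (0%, although 3208 genes had an unadjusted p under 0.05 and DESeq2 called 154). Among the members, 2 had an unadjusted p under 0.05. For C3 the log2 difference of females minus males was 1.42 (standard error 0.45, edgeR unadjusted p = 0.00385, adjusted p = 0.240), and for C4b it was 0.31 (standard error 0.15, edgeR unadjusted p = 0.0412, adjusted p = 0.470). For C1qb and C1qc it was -0.21 (standard error 0.13) and -0.13 (standard error 0.13).

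The remaining complement genes were read from a list of 45 that covers the other proteases, the alternative and terminal pathways, the other receptors and the regulators. Of these, 28 passed the minimum of expression. Over both sexes 1 was higher and 2 were lower in High Activity mice by edgeR, against 5.46% and 5.89% of all genes, and the median log2 fold change of the 45 was 0.08 against 0.01 over all genes. Among the 16 genes with a mean of at least 1 CPM the median was -0.03.

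Clu, which encodes clusterin, a chaperone that also blocks the terminal complex, was the most abundant of the complement genes examined. It was at 898 ± 25.9 CPM in High Activity females and 883 ± 40.0 CPM in High Activity males, against 838 ± 27.6 CPM in Low Activity females and 778 ± 68.9 CPM in Low Activity males (SD, n = 4 each). Its log2 fold change was 0.14 (standard error 0.04, edgeR adjusted p = 0.0196), and it missed the threshold without High Activity males 6 and 8 (edgeR adjusted p = 0.0549). Clu is an astrocyte gene, and the astrocyte markers were higher in High Activity mice as given above. Whether they account for the difference in Clu was not tested.

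Cd59a, a membrane-anchored inhibitor of the terminal complex, was at 8.21 ± 1.37 CPM in High Activity females and 8.77 ± 0.812 CPM in High Activity males, against 10.5 ± 1.58 CPM in Low Activity females and 11.4 ± 2.16 CPM in Low Activity males (SD, n = 4 each). Cd59a differed by -0.37 on the log2 scale (standard error 0.10, edgeR adjusted p = 0.0114), and it passed in all 25 alternatives tried. Its copy Cd59b had a log2 fold change of 0.86 (standard error 0.29) but missed the threshold (edgeR adjusted p = 0.0556). It was chosen for mention after its value was seen.

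Masp2, a protease of the lectin pathway, was at 0.740 ± 0.374 CPM in High Activity females and 1.02 ± 1.14 CPM in High Activity males, against 1.94 ± 0.264 CPM in Low Activity females and 1.76 ± 0.537 CPM in Low Activity males (SD, n = 4 each). For Masp2 the log2 fold change was -1.08 (standard error 0.34, edgeR adjusted p = 0.0358). One High Activity male reached 2.60 CPM, above every Low Activity library. Leaving out any 1 of 8 libraries (High Activity females 2, 3 or 4, High Activity male 7, Low Activity females 10 or 11 or Low Activity males 13 or 15) left Masp2 short of the threshold, with edgeR adjusted p between 0.0510 and 0.0747, as did DESeq2 (adjusted p = 0.0505) and the minimum of expression (edgeR adjusted p = 0.0567). It passed in 15 of 25 alternatives.

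The other branches showed no call over both sexes. None of the 3 alternative pathway genes, the 7 terminal components and the 5 other receptors passed (0 of 15 by edgeR, DESeq2 and limma-voom, with 2 at an unadjusted p under 0.05). Itgb2, the beta chain that pairs with Itgam, was at 3.93 ± 0.490 CPM in High Activity females and 3.73 ± 0.278 CPM in High Activity males, against 4.68 ± 0.659 CPM in Low Activity females and 4.15 ± 0.624 CPM in Low Activity males (SD, n = 4 each). In females alone C5ar2, the second C5a receptor, was lower in High Activity mice (log2 fold change -1.23, standard error 0.37, edgeR adjusted p = 0.0446). It had 5 to 11 counts per library in High Activity females and 13 to 30 in Low Activity females, and over both sexes it missed the threshold (edgeR adjusted p = 0.0603). No other complement gene differed between the sexes or in the interaction (0 of 45 in each by edgeR, DESeq2 and limma-voom, with 2 and 3 at an unadjusted p under 0.05).

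**Figure D4:**
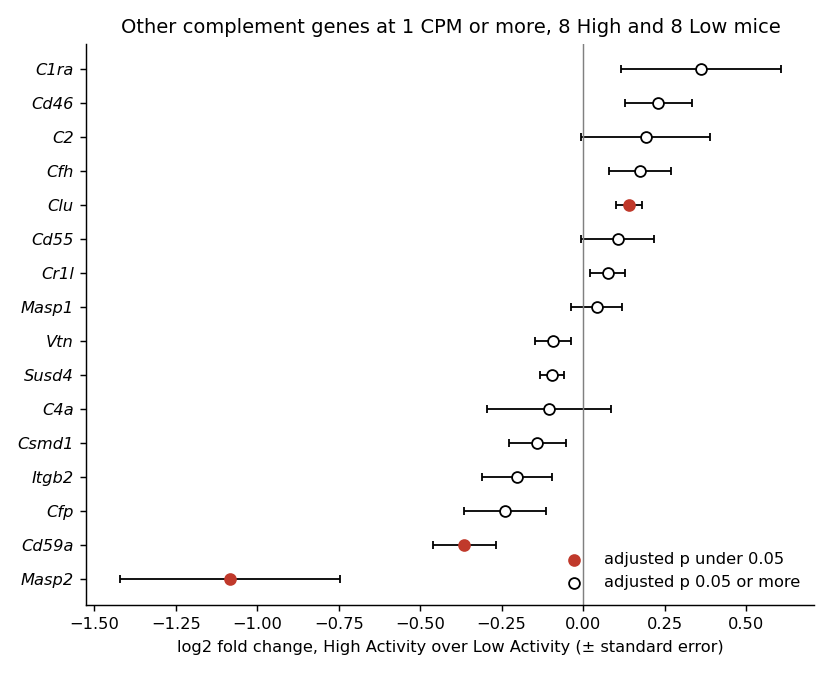
Log2 fold change of High over Low Activity (horizontal axis, ± standard error, 8 mice per strain) for the 16 other complement genes with a mean of at least 1 CPM. Filled points passed the test over all genes: Clu at 0.14, Cd59a at -0.37 and Masp2 at -1.08.

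The neighbours of the members on the chromosome were read to see whether nearby genes differed too. The 3 nearest protein-coding genes with at least 1 CPM on each side of each member, with the C1q cluster taken as 1, gave 42 genes, of which 2 were higher and 6 lower in High Activity mice by edgeR, against 10.03% and 11.1% of the 13751 protein-coding genes with at least 1 CPM. Beside the C1q genes, Luzp1, which encodes a protein of the cytoskeleton, had a log2 fold change of -0.22 (edgeR adjusted p = 0.000473) and Zbtb40, a zinc finger gene, one of -0.41 (edgeR adjusted p = 0.000229). They lie 325 kilobases before and 80.9 kilobases after the cluster, and the nearest gene on each side, Ephb2 and Epha8, did not pass (edgeR adjusted p = 0.781 and 0.925).

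Beside C3ar1, Foxj2 (-0.14, edgeR adjusted p = 0.0281) and Necap1 (-0.11, edgeR adjusted p = 0.0307) were lower, the opposite direction to C3ar1. Foxj2, a forkhead transcription factor gene, ends 1.8 kilobases from it. Beside Serping1, Ypel4 (-0.42, edgeR adjusted p = 4.86e-07) and Rtn4rl2, a receptor of the Nogo receptor family (-0.19, edgeR adjusted p = 0.0183), were lower.

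The larger differences lay beside Itgam, which itself overlapped between the strains. Pycard, the adaptor ASC of inflammasomes, was at 2.87 ± 0.308 CPM in High Activity mice and 0.961 ± 0.194 CPM in Low Activity mice (SD, n = 8 each), without overlap (log2 fold change 1.58, standard error 0.16, edgeR adjusted p = 2.46e-08). Cox6a2, a subunit of cytochrome c oxidase, was at 5.25 ± 2.41 CPM in High Activity mice and 2.47 ± 0.870 CPM in Low Activity mice (SD, n = 8 each; log2 fold change 1.05, standard error 0.21, edgeR adjusted p = 0.0011), and the log2 fold change was 0.67 without High Activity males 6 and 8. None of the neighbours of C4b, C3 and C5ar1 passed (0 of 18 by edgeR, DESeq2 and limma-voom, with 6 at an unadjusted p under 0.05).

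Variation among mice of the same group was examined as the deviation of log2 CPM from the group mean over the 16 libraries. A total of 12 relations were computed, chosen after the values were seen, with permutation of the libraries within groups and Benjamini-Hochberg adjustment over the 12. C1qa and C1qb varied together (Pearson r = 0.83, permutation p = 0.00048, adjusted 0.00288; Spearman rho = 0.84, permutation p = 0.00067, adjusted 0.00375), and r was 0.87 without High Activity female 2 and High Activity male 5. The relation of C1qa to C1qc was similar in size (r = 0.77, permutation p = 0.00322, adjusted 0.00644; rho = 0.78, permutation p = 0.00295, adjusted 0.0059; r = 0.79 without the same libraries), and so was that of C1qb to C1qc (r = 0.80, permutation p = 0.00215, adjusted 0.00638; rho = 0.82, permutation p = 0.00097, adjusted 0.00375; r = 0.85 without High Activity female 2 and Low Activity male 13). The mean of the C1q chains followed the sum of the microglial markers (r = 0.84, permutation p = 0.00141, adjusted 0.00564; rho = 0.86, permutation p = 0.00118, adjusted 0.00375), with r = 0.84 without High Activity females 2 and 3. For Itgam, the relation to this sum missed the adjusted threshold (r = 0.61, permutation p = 0.0474, adjusted 0.0710; rho = 0.70, permutation p = 0.0341, adjusted 0.0512; r = 0.53 without the same females). A relation of C3ar1 to the same sum was not detected (r = 0.09, permutation p = 0.736, adjusted 0.803; rho = 0.20, permutation p = 0.462, adjusted 0.504; r = 0.22 without the same libraries), and its counts were low.

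Within groups, C4b followed the mean of the C1q chains (r = 0.73, permutation p = 0.00803, adjusted 0.0138; rho = 0.74, permutation p = 0.00764, adjusted 0.0131), with r = 0.68 without High Activity females 1 and 2. Serping1 followed the sum of the fibroblast and meningeal markers (r = 0.80, permutation p = 0.00017, adjusted 0.00204; rho = 0.83, permutation p = 0.00218, adjusted 0.00523), with r = 0.78 without High Activity female 2 and Low Activity male 15. This sum averaged 261 CPM in High Activity and 213 CPM in Low Activity mice. Its largest parts were Igf2 (134 and 101 CPM) and Pdgfra (54.5 and 48.3 CPM), which oligodendrocyte precursors also carry. With the choroid plexus markers, Serping1 had an r of 0.53 (permutation p = 0.162, adjusted 0.194; rho = 0.53, permutation p = 0.0950, adjusted 0.127; r = 0.33 without Low Activity female 9 and Low Activity male 15). A relation of C3 to these markers was not detected (r = -0.03, permutation p = 0.939, adjusted 0.939; rho = -0.15, permutation p = 0.644, adjusted 0.644; r = -0.17 without Low Activity female 9 and Low Activity male 15). The relation of C4b to the astrocyte markers (r = 0.52, permutation p = 0.00266, adjusted 0.00638; rho = 0.73, permutation p = 0.00125, adjusted 0.00375) had an r of 0.35 without High Activity males 7 and 8, so its size rests on those libraries. With the oligodendrocyte markers, C4b had an r of 0.44 (permutation p = 0.135, adjusted 0.180; rho = 0.45, permutation p = 0.124, adjusted 0.149; r = 0.39 without Low Activity males 13 and 16).

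Among the 13751 protein-coding genes with a mean of at least 1 CPM, those most like each of the 8 members that reach the same mean (C5ar1 does not) in these deviations over 16 libraries were Prom1, Ralgds and Pkp4 for C1qa (r = 0.87, 0.86 and 0.85), Oxsr1, Mcam and Tm7sf3 for C1qb (0.91, 0.90 and 0.87) and Lrmp, Ctsa and Cdca7l for C1qc (0.85, 0.85 and 0.84). For C4b they were Rsph9, Gnb4 and Ctsa (0.90, 0.85 and 0.85), so that Ctsa, which encodes the lysosomal protease cathepsin A, was named for both C1qc and C4b. For C3 they were Khnyn, Sec61g and Cuta (0.88, 0.86 and 0.85), for C3ar1 Zfp146, Pcdhb9 and Ipp (0.89, 0.83 and 0.81), for Itgam Thra, Slc9a2 and Zdhhc23 (0.95, 0.92 and 0.92) and for Serping1 Slc6a20a, Bmp7 and Colec12 (0.92, 0.91 and 0.91). C1qb ranked 11th for both C1qa and C1qc, and C4b ranked 8th for C1qc. These are the highest of many correlations in libraries that also share depth and dissection, and they carry no test.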

How the data were processed

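Gene counts of 16 mouse hippocampi were used. The authors trimmed the reads with cutadapt, used HISAT2 for alignment to mm10 and RSEM for the expected count of each gene, and left out genes without any count. The expected counts deposited by the authors are whole numbers, not normalized, for 31960 genes, and the study's notes name DESeq2 1.30.1 for its tests. Identifiers were joined to GENCODE M21 (GRCm38), where 61 were missing.

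Samples were grouped by the labelled strain and sex. CPM and log2 CPM (prior count 2) were computed with TMM factors, and strain, sex and their interaction were fitted to all genes and all 16 libraries by quasi-likelihood F-tests in edgeR 4.0.16 under R 4.3.3, with Benjamini-Hochberg adjustment over all genes. The biological coefficient of variation was 10.6%. Intervals are 95% and come from the same fit. The fits were tested on simulated data.

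The members and the lists of other complement genes, markers and alternatives were chosen with earlier results of these data known. Named were all members, other complement genes and neighbours with an adjusted p under 0.05, 3 genes per marker list by smallest p, and the 3 genes most like each member. Promoter sequences are from RefSeq (GRCm38.p6). Alternatives were RLE, upper-quartile or no factors, filterByExpr, DESeq2 1.42.0, limma-voom (limma 3.58.1), edgeR's newer quasi-likelihood method, a length and GC offset (spline with 5 degrees of freedom), each sex alone, and fits without High Activity males 6 and 8 or any 1 library. Mice are separate animals, so p-values measure the spread between mice of 1 inbred line each.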

Additional observations from a re-analysis of the deposited data

Results flagged for a closer look

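Of 36 groups of 4 mice (9 genes in 4 groups), 1 held a library that stood apart from the others by Dixon's criterion, which chance alone meets in about 1 in 20 groups. It was Serping1 in Low Activity females, where library 10 was at 10.2 CPM (277 counts) against 5.76, 6.16 and 6.41 CPM in the other 3. In this library the fibroblast and meningeal markers summed to 280 CPM, and it was 155 to 214 CPM in the 3 remaining females of this strain, and their part in the value was not tested.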

How the results depend on the processing

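Under 25 alternatives, the log2 strain differences of the members over both sexes lay between -0.76 and -0.68 for C1qb, -0.74 and -0.64 for C1qc, -0.38 and -0.25 for C1qa, -0.29 and -0.20 for C4b, 0.63 and 0.87 for C3, 0.58 and 0.68 for C3ar1 and 0.10 and 0.33 for C5ar1. For Serping1 they lay between 0.15 and 0.31, and for Itgam between -0.11 and -0.0063. Within a sex, the strain difference of C3 in males lay between -0.17 and 0.31 and that of C4b in females between -0.17 and -6.63e-05. No member was called for sex or for the interaction in any of them (0 throughout). Other complement genes called numbered 3 with all libraries, 5 with the length and GC offset, and 2 to 4 with 1 library left out. Values near 0 changed sign without High Activity males 6 and 8 for C1qa by sex (0.0115) and for the interaction of Itgam (-0.0319). With 1 library left out, the sex difference ran between -0.0181 and 0.0541 for Itgam and between -0.162 and 0.0228 for Serping1. The male strain difference of Itgam moved to 0.01 without males 6 and 8. Of the neighbours, Foxj2, Necap1 and Rtn4rl2 passed in 16, 15 and 21 of 25. The causes were not tested. Counts per library were 16 to 88 for C3 and 4 to 61 for Masp2. No paired analysis was possible because no replicate number is shared between the groups.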

Other observations

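Beyond the complement genes, endothelial markers also differed between the strains, with 4 of 8 higher and 1 lower in High Activity mice by edgeR. The vascular growth factor receptor Flt1 was at 59.9 ± 8.88 CPM in High Activity mice and 45.0 ± 5.25 CPM in Low Activity mice (SD, n = 8 each; edgeR adjusted p = 0.0001), and the junction protein Cldn5 was higher by 0.21 on the log2 scale (edgeR adjusted p = 0.0064). Ly6c1, a surface protein of brain endothelium, was lower, at 27.8 ± 2.204 CPM in High Activity mice and 34.5 ± 5.35 CPM in Low Activity mice (SD, n = 8 each; edgeR adjusted p = 0.00367), the same direction as its relative Ly6c2 among the leukocyte markers. Both genes belong to a family whose members can share reads.

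Of 8 markers of hippocampal neurons, 3 were higher and none was lower. C1ql2, which despite its name encodes a synaptic organizer with a C1q-like domain and no complement component, was at 68.3 ± 9.99 CPM in High Activity mice and 33.9 ± 3.92 CPM in Low Activity mice (SD, n = 8 each), the opposite direction to the C1q chains. The others were Wfs1 (edgeR adjusted p = 0.00403) and Bok (edgeR adjusted p = 0.0393). Among 7 markers of thalamus and habenula, 4 were higher, led by Gpr151 (edgeR adjusted p = 0.00142), Calb2 (edgeR adjusted p = 0.00955) and Tcf7l2 (edgeR adjusted p = 0.0171). High Activity males 6 and 8 were at 12.3 and 10.9 CPM of Gpr151, against 0.492 to 2.50 CPM in the other 6 High Activity libraries and 0.222 to 1.15 CPM in Low Activity libraries. Without these males, only Gpr151 was higher (log2 fold change 0.97, edgeR adjusted p = 0.0369), and Rora, a nuclear receptor, was lower (-0.32, edgeR adjusted p = 0.0310). The strain difference passed for 3 of the 7 in males and 0 of 7 in females, where 2 had an unadjusted p under 0.05, and no interaction passed (0 of 7, with 2 at an unadjusted p under 0.05). DESeq2 called 4 of the 7 over both sexes, 2 in males and 0 in females, and limma-voom called 0 in each, and neither called an interaction.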
